A study of Mus musculus with 2 samples.

Results

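Epithelial innate defence mediators were followed in the distal colon of mice that carry an interleukin-9 (IL-9) transgene and of wild-type mice. The genes were taken by name: S100a8, S100a9, Lcn2, Slpi, Lbp, Nos2, Ltf, Nox1, Duox2 and Pglyrp1. Every probe set (a group of short oligonucleotides that reads 1 transcript) whose platform annotation gave it 1 of these symbols was used. That gave 8 probe sets for 8 of the 10 genes, 1 each, out of 22626 non-control probe sets for 12393 genes. Nox1 and Duox2 had no probe set under this rule and were not analysed here.

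The wild-type group was FVB mice by its sample label, while the series text spells the strain TVB, and the other group was IL-9 transgenic mice (sample title Tg5). Each group was 1 Affymetrix array of RNA pooled from 4 mice that were bred under specific pathogen-free conditions, so there was no replicate, no test was possible, and no value below has an error. Sex, age and the promoter that drives the transgene are not given in the sources used here. The transgene was checked first. Il9 had an intensity of 5.14 in the wild-type pool and 862 in the transgenic pool.

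Cells that line the gut and the leukocytes beneath them share a set of secreted and membrane proteins that limit bacteria. Some starve bacteria of metals (the S100a8 and S100a9 dimer calprotectin, lipocalin-2 from Lcn2, and lactoferrin from Ltf), some recognise the bacterial wall (Lbp and Pglyrp1), some make reactive oxygen or nitric oxide (Nox1, Duox2 and Nos2), and Slpi encodes an inhibitor of neutrophil elastase. Several are known both from stressed colon epithelium and from neutrophil granules, and Lcn2 and calprotectin are widely used as markers of gut inflammation.

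None of the genes that could be read differed by 2-fold between the pools. Slpi and Pglyrp1, the antiprotease and the peptidoglycan-binding protein, were far above background in both pools and 1.28-fold and 1.29-fold higher in the transgenic pool. Lbp and Lcn2 lay close to background. The inflammation-associated genes S100a8, S100a9, Ltf and Nos2 were below it in both pools, so no difference in them was detectable on these arrays. Background here means a floor of 19.8 intensity units, which is the 40th percentile of the pooled values of both arrays without control probe sets, and values under it were set to it before a ratio was taken. Genes with at least 1 of their 2 values over the floor are called measured. A gene over it on only 1 array has a ratio that is a bound, with a sign fixed by that array. Of the 4 measured members, 0 were at least 2-fold higher or lower. Among the 8346 genes measured in all, 0.767% were 2-fold higher or more and 0.611% were 2-fold lower or more with the transgene, so a count of 0 in 4 says nothing particular about these genes.

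Of the 4 measured members, Slpi, Pglyrp1 and Lcn2 had an upstream sequence at hand and Lbp had none. These 3 sequences are shown to set motifs of factors known to act on innate defence genes beside the genes' values. Each runs from 250 bases before to 50 after the transcription start (RefSeq, GRCm38.p6), 5′ to 3′ on the gene's strand, and capitals mark matches to any of 4 motifs searched on both strands. The windows are chr2:164356458-164356757 (minus strand) for Slpi, chr7:18884440-18884739 (plus strand) for Pglyrp1 and chr2:32387690-32387989 (minus strand) for Lcn2.
Slpi: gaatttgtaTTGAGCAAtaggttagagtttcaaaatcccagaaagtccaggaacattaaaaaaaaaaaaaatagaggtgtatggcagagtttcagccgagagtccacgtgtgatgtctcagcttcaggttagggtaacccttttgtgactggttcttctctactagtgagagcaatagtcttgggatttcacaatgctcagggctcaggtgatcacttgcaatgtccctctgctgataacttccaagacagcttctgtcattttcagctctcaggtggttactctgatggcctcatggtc
Pglyrp1: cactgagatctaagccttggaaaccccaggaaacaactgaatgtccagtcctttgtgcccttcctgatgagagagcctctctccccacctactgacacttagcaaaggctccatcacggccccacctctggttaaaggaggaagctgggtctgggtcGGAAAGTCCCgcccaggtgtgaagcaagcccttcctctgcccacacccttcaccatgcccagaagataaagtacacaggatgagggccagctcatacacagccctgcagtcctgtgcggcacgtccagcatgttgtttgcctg
Lcn2: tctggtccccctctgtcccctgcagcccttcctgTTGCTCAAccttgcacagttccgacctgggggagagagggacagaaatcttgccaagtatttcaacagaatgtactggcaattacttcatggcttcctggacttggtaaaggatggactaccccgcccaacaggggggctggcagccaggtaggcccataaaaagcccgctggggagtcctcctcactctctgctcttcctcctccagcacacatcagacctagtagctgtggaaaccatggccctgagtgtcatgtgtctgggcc

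The motifs were TATAAA (the TATA box), TTCNNNGAA (the core that STAT proteins, which carry IL-9 signals, bind), TTGCNNAA (part of the C/EBP site) and the NF-kB consensus, known by that name. The capitals in Pglyrp1 are an NF-kB match on the opposite strand, GGAAAGTCCC as read on the gene's strand, whose first base lies 93 bases before the start. Those in Slpi and Lcn2 are TTGCNNAA matches beginning 241 and 216 bases before the start, the first on the opposite strand. Of the 8 members with a sequence in the table, 4 held TTGCNNAA, 2 the NF-kB consensus, 2 TATAAA and 0 TTCNNNGAA. Among all 32851 windows in that table, the shares with a match were 10.8%, 4.51%, 13.6% and 8.30% in the same order. No matches in the printed windows overlapped. A match describes the letters in these windows and says nothing on binding.

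Slpi encodes the secretory leukocyte protease inhibitor, a mucosal protein that also has antibacterial activity. Its probe set (1448377_at) read 1261 in the wild-type pool and 1609 in the transgenic pool. The transgenic value was the higher, at 1.28-fold or a log2 ratio (transgenic over wild type) of 0.35. Both values were well above the floor, by 63.7 and 81.3 times.

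Pglyrp1, the peptidoglycan recognition protein that binds and kills bacteria, read 598 in wild type and 773 in transgenic colon (1449184_at), a log2 ratio of 0.37. These values were 30.2 and 39.1 times the floor. Slpi and Pglyrp1 thus differed in the same direction and by like amounts, both under 2-fold. Measured genes were split into 4 equal bands by mean intensity. In the brightest band of 2087 genes, which holds both, the central 95% of log2 ratios spanned −0.46 to 0.55, so both lay inside that range. A ratio at least as high as theirs was found for 7.81% of those genes in the case of Slpi and for 6.85% in the case of Pglyrp1.

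Lbp, which binds bacterial lipopolysaccharide and hands it to CD14, read 26.7 in wild type and 34.0 in transgenic colon (1448550_at). The log2 ratio was 0.35, a 1.27-fold higher value, from intensities only 1.35 and 1.72 times the floor. Lcn2, whose product captures bacterial siderophores, read 16.7 in wild type, under the floor, and 25.7 in transgenic colon (1427747_a_at). It was therefore at least 1.30-fold higher, and it counts as measured only through the transgenic array, so its direction is fixed by the way it passed. Both genes fall in the dimmest of the 4 bands, where the central 95% of log2 ratios was wider, from −0.71 to 0.78. In that band 17.3% of genes had a ratio at least as high as that of Lbp and 15.8% one at least as high as the bound of Lcn2.

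The log2 ratios of the 3 members above the floor on both arrays, Slpi, Pglyrp1 and Lbp, lay between 0.35 and 0.37, with a median of 0.35, and that of Lcn2 is a bound whose sign the floor fixed. Over all measured genes the median was 0.04, and 56.0% of ratios were above 0. Each member rests on 1 probe set, so no second reading of the same transcript was at hand. For the 2847 other genes read above the floor in both pools by more than 1 probe set, log2 ratios of the same gene were compared. Their pooled standard deviation was 0.28, close in size to the members' own ratios, and the median standard deviation of a gene was 0.18. Neither value holds any spread between mice.

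**Figure D1:**
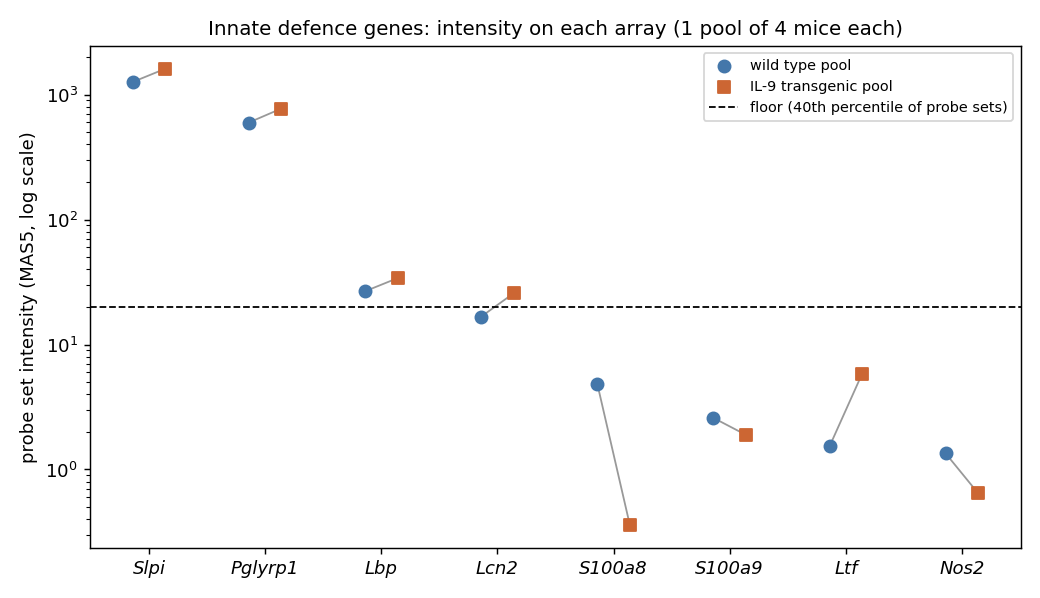
Intensity of each innate defence gene (vertical axis, MAS5 units on a log scale) on the wild-type array (circles) and the transgenic array (squares), with the floor of 19.8 as a dashed line; each point is 1 array of 1 RNA pool, and points are to be compared within a gene only. Slpi and Pglyrp1 lie far above the line, Lbp and Lcn2 next to it, and S100a8, S100a9, Ltf and Nos2 below it on both arrays.

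The subunits of calprotectin were not detected above the floor. S100a8 read 4.85 in wild type and 0.360 in transgenic colon (1419394_s_at, a probe set of a type that can bind several transcripts). S100a9 read 2.59 and 1.89 (1448756_at). Neither array gave either gene a value near 19.8, and no ratio is given.

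Ltf, for the iron-binding protein lactoferrin, read 1.53 in wild type and 5.82 in transgenic colon (1450009_at). Nos2, the inducible nitric oxide synthase, read 1.34 and 0.644 (1420393_at). Across these 4 undetected genes the intensities ran from 0.360 to 5.82. Values under the floor have no order here.

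**Figure D2:**
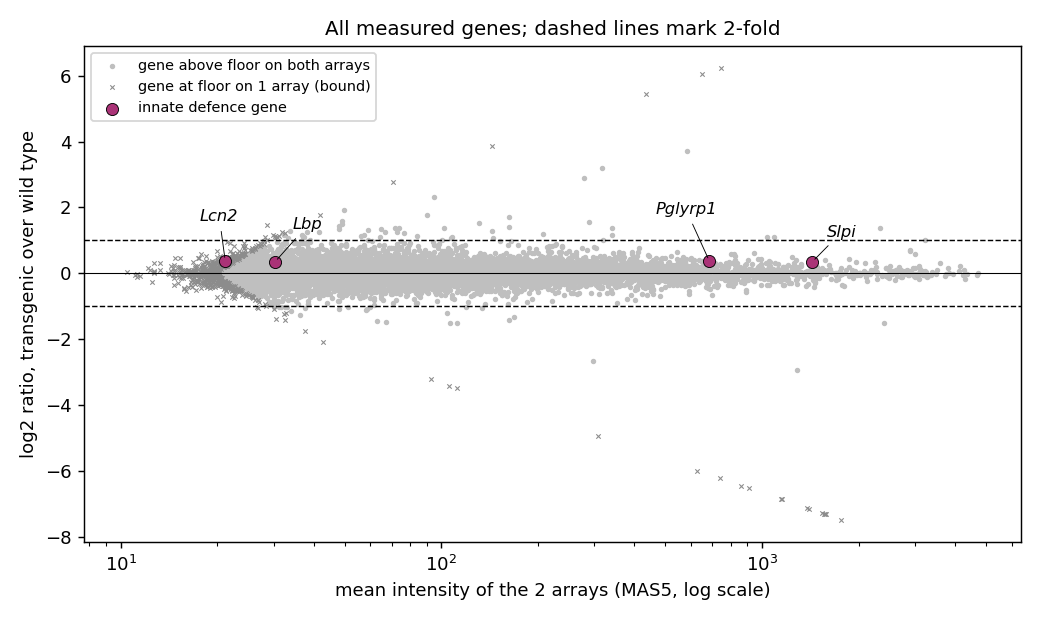
Log2 ratio of transgenic over wild type (vertical axis) against mean intensity of the 2 arrays (horizontal axis, log scale) for the 8346 measured genes, 1 point each; crosses are bounds for genes at the floor on 1 array, and large points are the 4 measured innate defence genes. Slpi, Pglyrp1 and Lbp sit between 0.35 and 0.37 and the bound of Lcn2 at 0.38, within the cloud of other genes and short of the dashed 2-fold lines.

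Several members are also neutrophil granule genes, so markers of that cell type were read beside them. Of 15 neutrophil markers with a probe set, 14 were below the floor in both pools, among them the granule genes Mpo, Elane, Camp and Ngp and the receptor genes Cxcr2 and Csf3r. The exception was the gelatinase gene Mmp9, which read 31.6 in wild type and 10.2 in transgenic colon, at least 1.59-fold lower. Mmp9 was measured only through the wild-type array, so its sign was fixed. The summed intensity of the 15 markers, 94.2 in the wild-type pool and 83.7 in the transgenic pool, consists mostly of values under the floor, so no difference is read from it.

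Epithelial markers were present in both pools. All 15 with a probe set, among them Epcam, Krt8 and Vil1, exceeded the floor on both arrays, with a median log2 ratio of 0.04 and summed intensities of 28730 and 28400 in the wild-type and transgenic pools. None reached 2-fold in either direction. The arrays do not show which cells made the Slpi or Pglyrp1 transcript.

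Markers of other cell types were also read, and those of mast cells and pancreatic acinar cells differed most between the pools. In pooled tissue RNA, fewer cells of a type and less RNA per cell cannot be told apart. Mast cell markers summed to 229 in wild type and 3363 in transgenic colon. Of 8 measured, 5 were 2-fold higher or more, and Ms4a2 was below the floor on both arrays. Of those 5, only Cpa3 was above the floor on both arrays. Mcpt1, Mcpt2, Mcpt4 and Fcer1a were measured only through the transgenic array, so their sign was fixed. Pancreatic acinar markers summed to 31616 and 1699, and all 14 measured were lower in the transgenic pool by 2-fold or more. Cela1, Pnliprp2 and Clps were above the floor on both arrays, and the rest were measured only through the wild-type array. The source of these acinar transcripts, including which tissue entered each pool, was not tested. Over all measured genes, 0.767% were 2-fold higher or more and 0.611% were 2-fold lower or more. Macrophage and dendritic cell markers summed to 1727 and 2038, with a median log2 ratio of 0.27. Of 13 measured, 1 was at least 2-fold higher, Itgax, which was measured only through the transgenic array. Ccr2 and Fcgr1 were below the floor. The part of these cells in the values of Slpi, Pglyrp1, Lbp and Lcn2 was not tested. Of 13 squamous epithelium markers 2 were measured, Lor 2.03-fold lower and Krt10 at a log2 ratio of 0.21. Lor sat at the threshold, just under 2-fold with no floor and a pseudocount, and was not measured with a floor at the 60th percentile. Of 8 small intestine markers 3 were measured and 0 reached 2-fold, and 0 of 5 erythrocyte markers were measured.

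Partners and relatives of the members were read from lists of related genes, and the counts that follow leave out the members themselves. Each count is to be read beside the shares over all 8346 measured genes. Of these, 0.767% were 2-fold higher or more and 0.611% were 2-fold lower or more. With lists this short, a count of 0 says nothing particular about a list. Nox1 and Duox2 had no reading, but subunits of the Nox1 oxidase did. Noxo1, the organiser subunit of the Nox1 oxidase of colon epithelium, read 188 in wild type and 249 in transgenic colon, a log2 ratio of 0.41. Cyba, the membrane subunit p22phox shared by several oxidases, read 363 and 525, a log2 ratio of 0.53. Both were higher in the transgenic pool and under 2-fold. The activator subunit gene Noxa1 was not analysed here. Duoxa2 and Duoxa1, the maturation factors of the dual oxidases, stayed under the floor, at 6.34 and 11.1 for Duoxa2 and at 1.94 and 1.41 for Duoxa1.

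The subunits of the phagocyte oxidase varied more among themselves. Rac2, a small GTPase of blood cells that activates it, read 35.5 and 79.7 and was 2.25-fold higher in the transgenic pool. It was the only 1 of 7 measured genes in the oxidase list past 2-fold, beside 0.767% of all measured genes. Ncf4 (p40phox) had a log2 ratio of 0.68 and Cybb, the catalytic subunit, one of 0.52. Ncf1 (p47phox) was at the floor in wild type and at least 1.15-fold higher. The widely expressed GTPase gene Rac1 had 0.02, and 0.16 by its other measured probe set. The 6 genes above the floor on both arrays had ratios above 0, beside 56.0% of all measured genes, and the median over all 7 was 0.52; Ncf1 was measured only through the transgenic array, so its sign was fixed. Rac2, Cybb, Ncf1 and Ncf4 are leukocyte genes. The macrophage and dendritic cell marker Itgax stood at least 2.13-fold higher beside them. Itgax, too, was measured only through the transgenic array, so its sign was fixed, as was that of Clec7a. Of the 13 measured markers of that list, 11 had ratios above 0, and the median log2 ratio was 0.27. The 2 below 0 were Adgre1, the macrophage marker F4/80, at −0.43 and Mrc1 at −0.02. The part of leukocytes in the ratios of the oxidase subunits was not tested. With a floor at the 60th percentile (55.1), the wild-type value of Rac2 was under it, so its log2 ratio of 0.53 was a bound. Itgax was not measured with that floor. With one at the 20th percentile, Ncf1 also passed 2-fold, at a log2 ratio of 1.53.

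Nitric oxide and arginine genes other than Nos2 showed no 2-fold difference among 6 measured genes, and their median log2 ratio was −0.09. Nos1, the neuronal synthase, had −0.70 (45.1 in wild type, 27.8 in transgenic colon). The endothelial synthase gene Nos3 read 22.2 and 21.8, next to the floor. Gch1, which makes the synthases' cofactor, had 0.24 by its brightest probe set and −0.04 by its other. The arginase genes Arg1 and Arg2, which compete with Nos2 for arginine, were below the floor in both pools.

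Genes that act with Lbp in lipopolysaccharide recognition went both ways. Of 8 measured, 0 reached 2-fold, 4 had ratios above 0, and the median log2 ratio was −0.003. With the mean of a gene's probe sets, 5 of 8 were above 0 and the median was 0.05. Irak1 had −0.08 by its brightest probe set, and its other 3 ran from 0.14 to 0.47. The co-receptor gene Cd14 read 273 in wild type and 286 in transgenic colon, a log2 ratio of 0.07. Its partner Ly96 (MD-2) read 23.6 and 22.9, close to the floor. The receptor gene Tlr4 had a log2 ratio of −0.76 by its brightest probe set and −0.05 by its other. Ly86 (MD-1), a relative of Ly96 from B cells and myeloid cells, had 0.62.

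For peptidoglycan and bacterial lipoprotein recognition beside Pglyrp1, Tlr2 and Tlr1 had log2 ratios of 0.06 and 0.07. Tlr6 was at the floor in wild type and at least 1.07-fold higher, a bound with a fixed sign. Pglyrp2 was below the floor in both pools. None of these 3 reached 2-fold.

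Of the S100 family, 9 genes other than S100a8 and S100a9 were measured and 0 reached 2-fold, with a median log2 ratio of 0.07; the count includes S100pbp, which encodes a binding partner of an S100 protein. S100a6 read 2669 and 2739 and S100a10 read 1728 and 1679, with log2 ratios of 0.04 and −0.04. S100g, the vitamin D-dependent calcium carrier calbindin-D9k, read 9.96 in wild type, under the floor, and 35.3 with the transgene, which is at least 1.78-fold higher. Its sign was fixed, since only the transgenic array made it measured. With a floor at the 20th percentile, 1 of 11 measured genes of the family was 2-fold higher or more. S100a4 had 0.27.

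Among antiproteases beside Slpi, 1 of 9 measured genes was 2-fold higher or more, beside 0.767% of all measured genes. The median log2 ratio of the 9 was 0.18. Serpina3n, an acute phase inhibitor of serine proteases, read 211 and 427, 2.02-fold higher. It sat at the threshold, with log2 ratios of 0.99 under quantile normalization and 0.97 under loess scaling, which are below 2-fold. Spink4, a Kazal-type inhibitor of goblet cells, had 0.70 (2216 in wild type, 3588 in transgenic colon), and Serpinb9, an inhibitor of granzyme B, had 0.48. Wfdc2, a whey acidic protein relative of Slpi, read 1125 and 1214, a log2 ratio of 0.11. Serpinb1a had −0.31 by its brightest probe set and 0.08 by its other.

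Iron handling genes beside Lcn2 and Ltf had a median log2 ratio of −0.12 over 9 measured genes, and 0 reached 2-fold. The iron exporter gene Slc40a1 (ferroportin) read 822 and 708, a log2 ratio of −0.22, and its other probe set had 0.004. The transferrin receptor gene Tfrc had −0.12, and its other 2 probe sets had 0.06 and 0.07. Hamp, for the iron hormone hepcidin, was at the floor in wild type and at least 1.25-fold higher, with its sign fixed by that. Slc22a17, which encodes a receptor for lipocalin-2, had −0.22 at intensities of 23.6 and 20.2.

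Acute phase genes other than Lbp and Lcn2 gave 5 measured genes of 14, with Serpina3n the only 1 past 2-fold. Saa1, a serum amyloid A gene made by colon epithelium, read 2595 and 2756, a log2 ratio of 0.09 against −0.07 by its other probe set. Saa2 had −0.10. The brightest Saa1 probe set and that of Saa2 are of a type that can bind several transcripts, so they may not read the genes separately. With such probe sets left out, 3 genes of the list were measured. Saa3, Hp, Orm1 and Crp were among the 9 below the floor in both pools.

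Cytokines known to induce S100a8, S100a9, Lcn2 or Nos2 were not detected where they could be read. Il17a, Il1a, Il1b, Il6, Tnf and Ifng were all below the floor on both arrays, the highest being Il1b at 9.99 and 16.1. Of the 16 measured receptors and regulators 0 reached 2-fold, and their median log2 ratio was 0.13. Il17rc, a chain of the IL-17 receptor, had 0.54 (112 and 163), and Il1r1 had 0.23. Nfkbiz, a regulator that IL-17 induces, had −0.22 by its brightest probe set and −0.68 by its other. Il17ra had 0.20 and 0.52, and Stat3, a carrier of IL-9 and IL-22 signals, had 0.13 and 0.27, by the brightest and the other measured probe set.

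Enzymes that remove reactive oxygen gave 16 measured genes, of which 0 reached 2-fold, with a median log2 ratio of 0.11. Gpx2, the glutathione peroxidase of gut epithelium, read 423 and 663, a log2 ratio of 0.65. Catalase (Cat) had −0.37, and −0.30 by its other probe set. Gpx1 had 0.30. Prdx4, a peroxiredoxin of the endoplasmic reticulum, had 0.18 by its brightest probe set, but its other 2 read −1.07 and −1.02, which is past 2-fold lower. Lpo, which encodes lactoperoxidase, read 935 and 1009, a log2 ratio of 0.11, whereas the neutrophil and eosinophil peroxidase genes Mpo and Epx were below the floor in both pools.

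**Figure D3:**
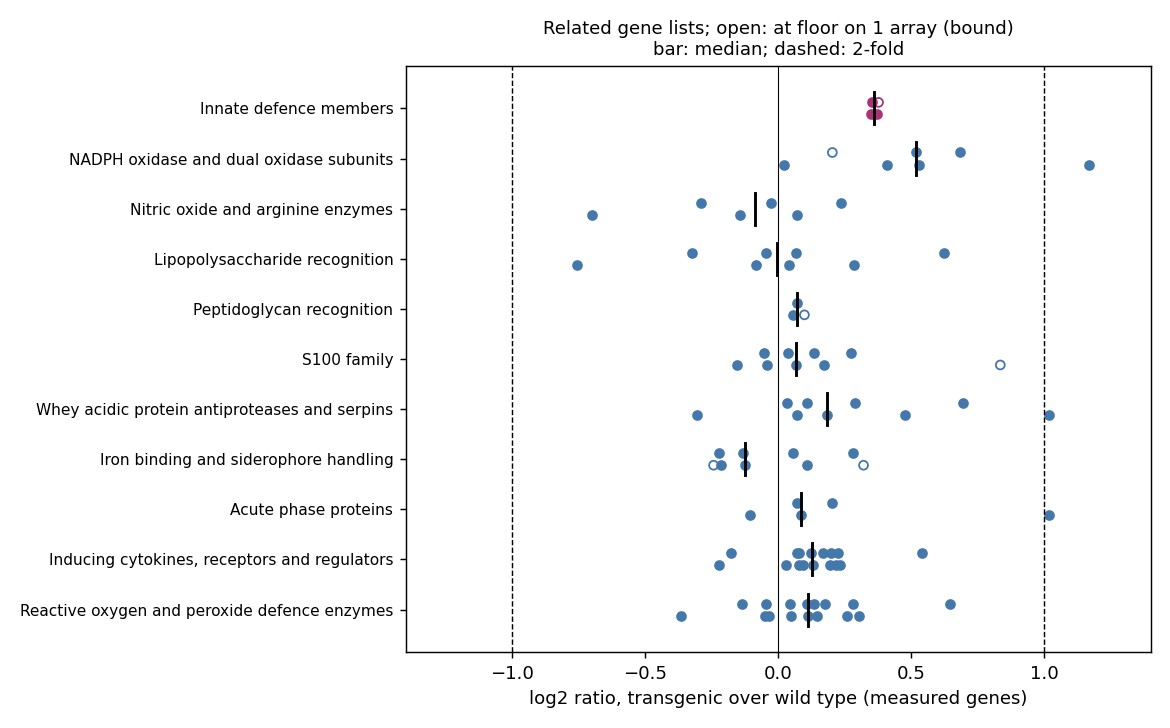
Log2 ratio of transgenic over wild type (horizontal axis) for the measured innate defence genes (top row) and for the other measured genes of 10 related lists (rows below, members left out), 1 point per gene, with open points for bounds and a bar at each median. Rac2 in the oxidase row and Serpina3n, which belongs to 2 lists, lie past the dashed 2-fold lines, and the members lie between 0.35 and 0.38, the highest being the bound of Lcn2.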

How the data were processed

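RNA from distal colon was hybridised to 1 array per group, each from 4 mice, with 5 µg of total RNA labelled per the labels' protocols. The deposited table gives 1 linear intensity per probe set and array, made by the authors with MAS5 per the submitters' processing notes; its version is unstated in these sources. Medians were 34.0 (wild type) and 34.2 (transgenic), and 60.2% and 59.8% of 22626 non-control probe sets exceeded the floor. Depth has no meaning for arrays, and the number of arrays limits the precision.

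Genes were named from probe sets with 1 symbol in the platform annotation; for genes with several, the brightest stood for the gene. Intensities were floored at 19.8, log2 ratios taken with no further scaling, and a log2 ratio of 1 in size called. No test was run. The procedure was run on simulated data whose planted differences exceeded 2-fold and lay in probe sets well above the floor. That run says nothing on ratios as small as those of the members or on genes near the floor. Alternatives were median, quantile and loess (span 0.3) scaling, floors at the 20th and 60th percentiles, no floor with a pseudocount of 0.735, the mean of a gene's probe sets, and leaving out probe sets that can bind several transcripts. Python 3.11.15, pandas 2.3.3 and statsmodels 0.14.6 were used.

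Named were all members, their partners, and in each list the genes past 2-fold and up to 3 others with large ratios, though not all of these are reported; further genes named, with their values or as below the floor, were chosen after their values were seen. The members and lists were chosen with earlier results of these data known.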

Additional observations from a re-analysis of the deposited data

How the results depend on the processing

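Under the 8 alternatives, Slpi, Pglyrp1 and Lbp gave 23 log2 ratios, all above 0, below 2-fold and within 0.28 (the pooled standard deviation between probe sets of a gene) of the value reported. Part of this was fixed beforehand. Each gene has 1 probe set, not of a type that can bind several transcripts, so both probe set settings must return the reported value. The other floors must too, wherever both values stay above them. Only scaling and the pseudocount could move these ratios. Slpi ran from 0.33 to 0.40, Pglyrp1 from 0.35 to 0.39, and Lbp from 0.34 to 0.35. Lcn2 ran from 0.37 to 0.62 over 6 alternatives, mostly as a bound whose sign the floor fixes, and had 0.60 with no floor and a pseudocount. Once the floor was set at the 60th percentile, only Slpi and Pglyrp1 were measured, and Lcn2 has no value once probe sets of several possible targets are left out. With no floor and a pseudocount, 1 member was at least 2-fold higher (Ltf, 1.53) and 1 at least 2-fold lower (S100a8, −2.35); these ratios come from intensities under 6 units, and the cause was not tested. The share of all genes at least 2-fold higher was 1.87% when the floor was the 20th percentile, 0.485% at the 60th and 5.29% without a floor, and the share lower was 2.39% at the 20th and 6.46% without a floor. No paired analysis was possible because each group has 1 array.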
